A study of Mus musculus with 16 samples.

Results

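The transcriptional and post-translational control of sterol and fatty acid synthesis in mouse liver was followed through 8 regulators: Insig1, Insig2, Srebf1, Srebf2, Scap, Mlxipl, Nr1h3 and Mylip. They were taken by gene name from the count tables, where all 8 were among 24539 genes, and all 8 passed the filter on low counts. The mice were male C57BL/6. In the HB group, Betaine (which donates methyl groups) was added to a high-fat diet for 8 weeks, and the HF group received the high-fat diet without it for the same time. Both groups were 16 weeks old when the liver was taken, having started at 8 weeks, so the high-fat diet was common to all samples and no mice on a normal diet entered. Each diet had 2 libraries of total mRNA, 2 of the mRNA recovered with ribosome-nascent chain complexes (ribosome-bound mRNA, RNC), and 2 of RNA fragments enriched with an antibody to N6-methyladenosine (m6A). Of 16 samples in the labels, 12 were used; the m6A inputs were not analysed here. The RNA-seq samples were pools of 2 independent experiments, so every spread and p-value below describes pools rather than single mice.

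SREBP transcription factors (from Srebf1 and Srebf2) are made as membrane proteins of the endoplasmic reticulum. SCAP, the product of Scap, escorts them to the Golgi, where proteases release the active part; INSIG proteins hold SCAP back when sterols are plentiful. SREBP-1c mainly drives fatty acid synthesis genes and SREBP-2 mainly cholesterol synthesis genes. ChREBP, encoded by Mlxipl, responds to glucose metabolites and activates glycolytic and lipogenic genes. LXR alpha, encoded by Nr1h3, is an oxysterol-sensing nuclear receptor that activates Srebf1 and Mylip, and the Mylip product (IDOL) is a ubiquitin ligase that limits the uptake of lipoproteins.

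The upstream sequences of Insig1 and Mlxipl are shown because these were the members whose total mRNA passed the test between diets. Each line gives the 250 bases before an annotated start (RefSeq, GRCm38.p6, plus strand, 5′ to 3′), and capitals mark matches on either strand to CACGTG (E-box, bound by ChREBP and SREBP-type factors), CCAAT (NF-Y box), GGGCGG (Sp1 box) or TCACNCCAC (sterol response element). Insig1 lies at chr5:28071412-28078662 and Mlxipl at chr5:135089890-135139768. The windows are chr5:28071162-28071411 for Insig1, chr5:135089640-135089889 for the first start of Mlxipl and chr5:135106641-135106890 for its other start, 17001 bases downstream.
Insig1: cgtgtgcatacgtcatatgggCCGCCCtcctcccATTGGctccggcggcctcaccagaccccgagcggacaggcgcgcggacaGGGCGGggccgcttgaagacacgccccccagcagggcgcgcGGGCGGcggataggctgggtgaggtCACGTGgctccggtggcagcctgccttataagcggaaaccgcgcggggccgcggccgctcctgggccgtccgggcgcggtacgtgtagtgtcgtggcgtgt
Mlxipl first start: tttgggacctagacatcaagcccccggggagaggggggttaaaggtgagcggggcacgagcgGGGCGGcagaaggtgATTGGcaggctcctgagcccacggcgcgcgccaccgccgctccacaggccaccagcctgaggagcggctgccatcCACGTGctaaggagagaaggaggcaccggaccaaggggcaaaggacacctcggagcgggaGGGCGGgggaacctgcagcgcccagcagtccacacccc
Mlxipl downstream start: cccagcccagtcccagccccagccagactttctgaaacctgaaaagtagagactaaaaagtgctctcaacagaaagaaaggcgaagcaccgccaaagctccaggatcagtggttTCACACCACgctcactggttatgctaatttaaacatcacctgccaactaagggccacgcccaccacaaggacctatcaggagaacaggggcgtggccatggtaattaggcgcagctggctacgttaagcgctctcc
The Insig1 window held 3 GGGCGG matches, 1 CCAAT match and 1 CACGTG match. The first Mlxipl window held 2 GGGCGG matches, 1 CCAAT match and 1 CACGTG match, and the downstream window held the only TCACNCCAC match among the members, TCACACCAC. Within these windows no matches overlapped. All 8 members matched the promoter table, with 15 windows in all (each 250 bases before to 50 after a start). Of these 15, CACGTG was in 4, CCAAT in 7, GGGCGG in 10 and TCACNCCAC in 1, and the LXR DR4 motif was in 0. The windows are not all distinct, since the 2 of Scap overlap each other and so do the 2 of Nr1h3. Both Scap windows hold the same CACGTG site, which is thus counted 2 times, and they share 1 GGGCGG site. Among all 32851 windows of the table, CACGTG was in 7.15%, CCAAT in 37.4%, GGGCGG in 35.7%, TCACNCCAC in 1.24% and the DR4 motif in 0.0152%. Counts were given per gene, with 1 transcript listed for Mlxipl and 2 for Srebf1. Reads from the different starts of Mlxipl or of Srebf1 could therefore not be told apart.

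The mRNA libraries held 18011999 to 22492813 counted reads in HB and 11437462 to 11570775 in HF, and the ribosome-bound libraries held 6508500 to 8659310 in HB and 5778439 to 6431510 in HF. Library pairs differed in how far they stood apart. Chi-square over genes, per degree of freedom, was 1.40 between the HB ribosome-bound libraries. It was 98.0 between those of HF, 98.5 between the HB mRNA libraries and 34.7 between the HF mRNA libraries. The HB ribosome-bound libraries thus differed slightly more than counting error gives (chi-square p = 2.39e-130 over 9197 genes), but far less than any other pair. They were summed and counted as 1 sample, although the labels give them as 2 replicates and whether they are repeat runs is not known. Results that change when they are kept apart are named below. For HF, 2798 genes had 0 reads in either ribosome-bound library but over 20 in its replicate, and for HB 0 genes did. Hepatocyte markers (7 of 8 in the tables) summed to 84003 to 93532 CPM (of total counts, as for all marker sums) in HB mRNA and 76571 to 82150 CPM in HF mRNA. In bulk liver, fewer cells of a type and less RNA per cell cannot be told apart.

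Mlxipl was the most abundant member per transcript length. On the deposited RPKM scale it averaged 149 ± 23.8 in HB mRNA and 469 ± 49.5 in HF mRNA (SD, n = 2 each). In HB mRNA it was followed by Insig1 at 140 ± 101, Srebf1 at 91.8 ± 41.1 and Nr1h3 at 63.2 ± 4.94 RPKM, and the ranges of each neighbouring pair among these 4 overlapped. Insig2 (45.4 ± 12.7), Scap (20.2 ± 2.08), Srebf2 (5.78 ± 1.35) and Mylip (2.12 ± 0.429 RPKM) came next in HB mRNA, with no overlap between neighbours. In HF mRNA the order was Mlxipl, Nr1h3 (78.7 ± 11.0), Srebf1 (75.2 ± 38.9), Insig1 (44.0 ± 0.113), Insig2 (30.7 ± 17.5), Scap (21.5 ± 0.273), Mylip (5.26 ± 2.11) and Srebf2 (4.77 ± 0.521 RPKM); Nr1h3 overlapped Srebf1, Insig2 overlapped Scap, and Mylip overlapped Srebf2. Among ribosome-bound mRNAs, Mlxipl again led, at 257 to 260 RPKM in the HB libraries and 166 to 292 RPKM in the HF libraries, followed in both diets by Nr1h3 at 121 to 122 RPKM in HB and 78.7 to 143 RPKM in HF. Srebf2 was the lowest ribosome-bound member, at 1.01 to 1.18 RPKM in HB and at 0 in both HF libraries. In HF its range overlapped that of Mylip, which was at 0 in replicate 1, and the ranges of Nr1h3 and Srebf1 overlapped too.

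**Figure D1:**
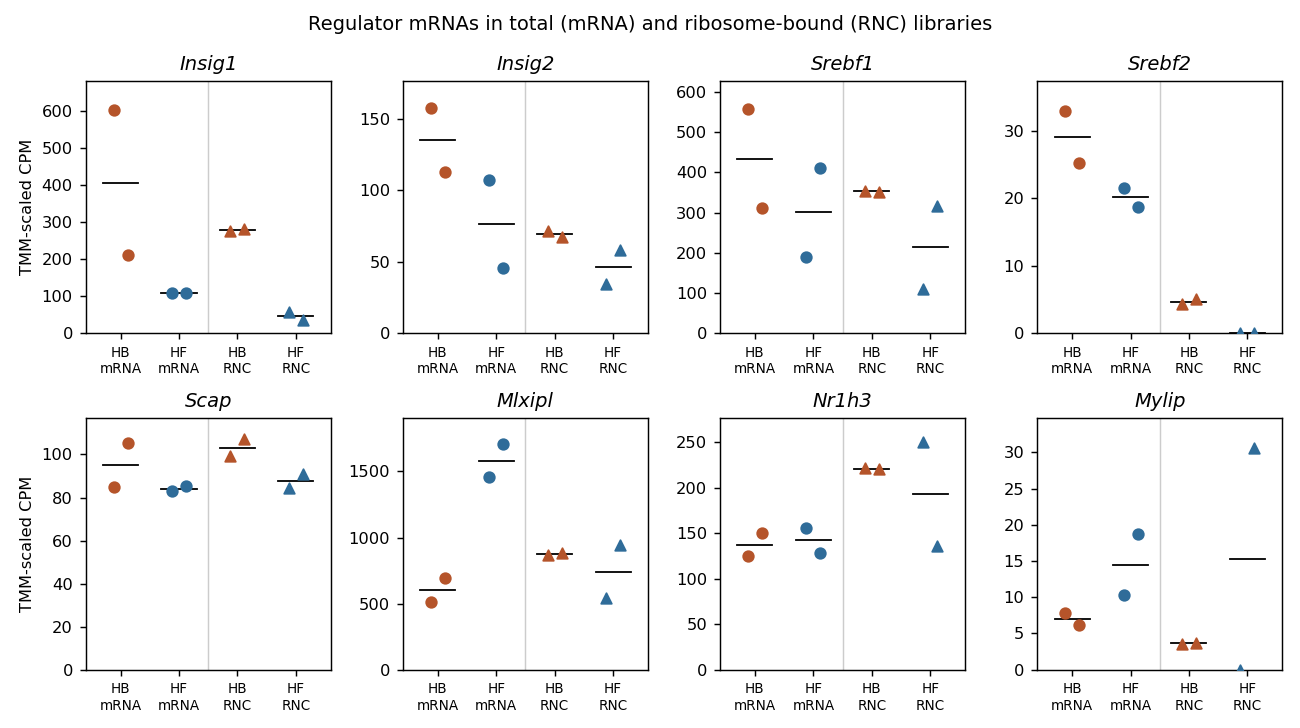
TMM-scaled CPM (y axis from 0, linear) of each regulator in every library, HB (orange) left of HF (blue), for total mRNA (circles, scaled over 4 libraries) and ribosome-bound mRNA (triangles, scaled over 8 libraries, so the kinds are on slightly different scales); horizontal bars are the means of 2 libraries. Insig1 mRNA is higher in both HB libraries (601.6 and 209 CPM) than in the HF libraries (107 and 108 CPM), Mlxipl mRNA is lower in both HB libraries, and Srebf2 has no ribosome-bound reads in HF.

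The first comparison asked which regulators changed in total liver mRNA when betaine was added to the high-fat diet. Insig1 rose 3.77-fold and Mlxipl fell to 0.382 of its HF level, and the other 6 members did not pass the test. That is 2 of 8 members called (adjusted p under 0.05, edgeR quasi-likelihood test on the 4 mRNA libraries, Benjamini-Hochberg adjustment), 1 higher and 1 lower, against 21.4% of all 12817 genes tested, of which 11.3% were higher and 10.1% lower. The share of members called is thus near that of all genes. The median log2 change of the members was 0.36, against 0.01 over all genes tested.

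Levels below are TMM-scaled CPM, that is, a gene's reads relative to the library's scaled size. Insig1, the INSIG that is itself an SREBP target, had 601.6 and 209 CPM in the HB libraries, against 107 and 108 CPM in the HF libraries. Both HB libraries lay above both HF libraries, but HB replicate 1 stood well above HB replicate 2. The log2 change was 1.91 (SE 0.43, adjusted p = 0.0137, edgeR). Without HB replicate 1 it was 0.97 (adjusted p = 0.0452), and it remained called with each other mRNA library left out. Insig2, the INSIG whose liver transcript is known to fall with insulin, had 157 and 113 CPM in HB, against 107 and 45.8 CPM in HF. Its groups did not overlap, with HB replicate 2 only slightly above HF replicate 1. The log2 change of Insig2, 0.82 (SE 0.38), was not called (adjusted p = 0.143, edgeR). It was called by edgeR with no filter on low counts (adjusted p = 0.0457) and with replicate number as a block (0.0472). DESeq2 did not call it (adjusted p = 0.128).

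Srebf1 had 559 and 310 CPM in HB, against 190 and 411 CPM in HF. The groups overlapped, since HF replicate 2 exceeded HB replicate 2, and the log2 change of 0.53 (SE 0.40) was not called (adjusted p = 0.361). Srebf2 had 33.0 and 25.3 CPM in HB, against 21.6 and 18.7 CPM in HF. Both HB libraries were the higher ones, by a small margin, and the log2 change of 0.53 (SE 0.29) was not called (adjusted p = 0.204). Scap, the escort of both SREBPs, had 85.0 and 105 CPM in HB, against 82.9 and 85.1 CPM in HF. Its groups overlapped (log2 change 0.18, SE 0.28, adjusted p = 0.672).

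Mlxipl had 516 and 693 CPM in HB, against 1457 and 1706 CPM in HF. Both HF libraries lay far above both HB libraries. The log2 change was -1.39 (SE 0.31, adjusted p = 0.0124, edgeR), and the call held with each mRNA library left out in turn, at -1.60 to -1.18. Nr1h3 had 125 and 150 CPM in HB, against 156 and 129 CPM in HF. These ranges overlapped almost fully, and the log2 change was -0.05 (SE 0.29, adjusted p = 0.919).

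Mylip, the gene of the ubiquitin ligase IDOL, had 7.76 and 6.22 CPM in HB, against 10.3 and 18.7 CPM in HF. Both HB libraries lay below both HF libraries, and HF replicate 2 stood apart from HF replicate 1. The log2 change of -1.05 (SE 0.37) was just short of a call (adjusted p = 0.0608, edgeR); it was called by DESeq2 (adjusted p = 0.0484), with total counts (0.0277), with no filter on low counts (0.0204) and among genes of at least 5 CPM (0.0474), and not called with any mRNA library left out. Neutrophil markers differed in the same direction. Of 6 such genes 4 were tested and all 4 fell in HB mRNA (S100a8, S100a9, Csf3r and Cxcr2); summed over the list, they were at 6.54 to 6.94 CPM in HB mRNA and 20.2 to 46.5 CPM in HF mRNA, and HF replicate 2 had the high value, as it did for Mylip. Of the defining markers, Ly6g was at 0 in all 4 mRNA libraries and Retnlg in 1. In ribosome-bound RNA the list summed to 58.2 to 63.4 CPM in HB and 58.1 to 94.1 CPM in HF. Most of this was Cxcr2, at 39.2 and 44.5 CPM in HB, against 58.1 and 53.5 CPM in HF. Ribosome-bound S100a8 was at 14.9 and 14.4 CPM in HB, against 0 and 0 CPM in HF. The part of neutrophil RNA in the Mylip values was not tested. Kupffer cell markers, which matter for Nr1h3 because those cells also express it, summed to 260 to 298 CPM in HB mRNA and 258 to 278 CPM in HF mRNA. Clec4f had the highest level of the list and weighs on this sum, at 118 and 119 CPM in HB mRNA, against 178 and 158 CPM in HF mRNA. The similar sums therefore do not stand for the whole list, in which 7 of 8 markers had a positive log2 change with TMM. Of the 8, 3 were called higher and 0 lower, against 11.3% higher and 10.1% lower among all genes.

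Scaling bears on these small differences. When libraries were scaled by total counts and not by TMM, the median log2 change over all genes shifted by -0.29, and 25.2% of all calls were higher in HB, against 52.8% with TMM. The sign of Scap then turned (-0.12), whereas Insig1 (1.65) and Mlxipl (-1.68) kept their calls. In the fit that also held the ribosome-bound libraries, whose common dispersion was 0.464 against 0.0644 in the 4 mRNA libraries, 0 of 12634 genes were called in mRNA (1647 at an unadjusted p under 0.05). Insig1 (log2 change 1.93, adjusted p = 0.292) and Mlxipl (-1.38, adjusted p = 0.270) were then not called either.

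**Figure D2:**
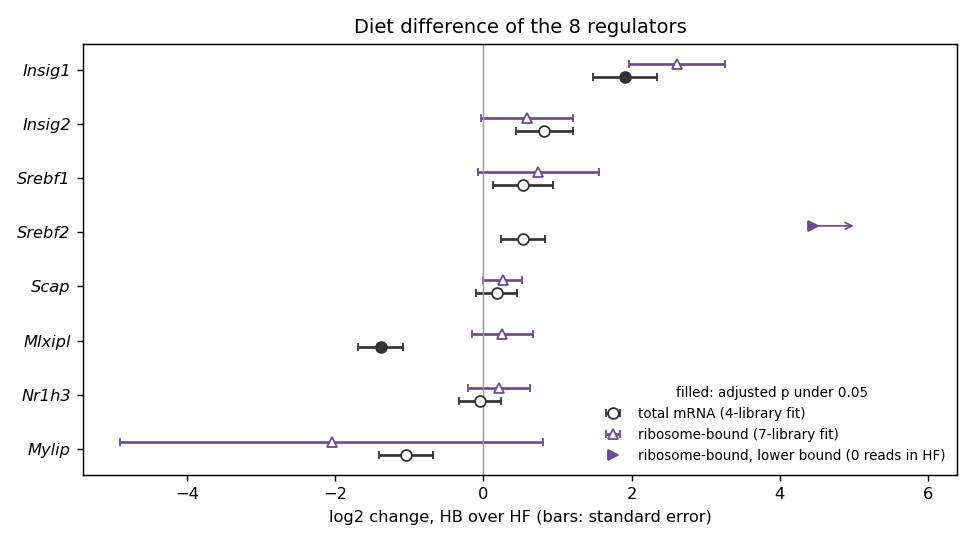
Log2 change of each regulator, HB over HF (x axis), in ribosome-bound mRNA (upper, triangles) and total mRNA (lower, circles), with standard errors as bars; filled symbols passed an adjusted p of 0.05. Insig1 and Mlxipl passed in total mRNA, at 1.91 and -1.39; the arrow for Srebf2 starts at its lower bound of 4.45, since HF had 0 reads.

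The ribosome-bound comparison asked whether the same regulators differed between diets in the mRNA carried by ribosomes. Srebf2 was the member called, because its reads were present in HB and absent in HF. Insig1 again had its higher values in HB, without a call, and Mlxipl showed no counterpart of its lower total mRNA. In the 7-library fit (ribosome-bound and total mRNA, with the HB ribosome-bound pair as 1 sample) 1 of 8 members was called, against 11.5% of all 12634 genes. The HB value is assumed there to vary like the other groups.

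Srebf2 had 30 and 47 reads in the HB ribosome-bound libraries, against 0 and 0 reads in the HF ones. On the CPM scale this was 4.72 for the summed HB sample; a count of 0 allows up to 3 reads over the HF pair, 0.216 CPM, so Srebf2 was at least 21.8-fold higher in HB (adjusted p = 0.0201, edgeR, counting error only for the bound). The same pattern, 0 reads in both HF ribosome-bound libraries and over 20 in both HB ones, held for 769 genes, 6.0% of the 12817 tested in mRNA, and the reverse for 401. The call was lost when any of the 4 mRNA libraries was left out (adjusted p of 0.107 to 0.115), settings under which 0 genes of the whole table were called, and with the ribosome-bound libraries alone (adjusted p = 1.00). It held with DESeq2 and with the HB pair kept as 2 samples.

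Insig1 had 276 and 282 CPM in the HB ribosome-bound libraries (scaled over all 8 libraries), against 55.9 and 36.4 CPM in HF. All HB values were far above the HF values, with a log2 change of 2.61 (SE 0.65, adjusted p = 0.0791), 6.12-fold, which was not called. It was called by DESeq2 (2.56, adjusted p = 0.00446) and by edgeR with the HB pair kept as 2 samples (2.59, adjusted p = 0.0196). Without an HF ribosome-bound library it was also called (2.34 and 2.96), but ribosome-bound replicates were then lacking in both diets. Mlxipl had 870 and 881 CPM in HB, against 542 and 941 CPM in HF. The HB values lay between the HF values, and the log2 change was 0.26 (SE 0.41, adjusted p = 0.895).

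Ribosome-bound Srebf1 was at 354 and 352 CPM in HB, against 109 and 317 CPM in HF (log2 change 0.74, SE 0.81, adjusted p = 0.744). The HF libraries were far apart, and without HF replicate 1 or 2 the log2 change of Srebf1 was 0.17 or 1.71. Insig2 was at 71.3 and 67.0 CPM in HB, against 34.6 and 58.2 CPM in HF (0.59, SE 0.62, adjusted p = 0.725). Scap was at 99.2 and 107 CPM in HB, against 84.2 and 90.9 CPM in HF (0.26, SE 0.26, adjusted p = 0.703). For these genes the groups did not overlap, but the HB pair was counted as 1 sample. Nr1h3 was at 221 and 220.1 CPM in HB, against 250.01 and 136 CPM in HF (0.21, SE 0.42, adjusted p = 0.953), an overlap. Mylip had 25 and 35 reads in HB, against 0 and 224 reads in HF. The HF libraries enclosed the HB values. The pattern of 0 in HF replicate 1 and over 20 in HF replicate 2 was shared by 1566 genes. The log2 change of -2.05 had an SE of 2.85 (adjusted p = 0.847, edgeR). It was -3.05 without HF replicate 1, and 8.62 without HF replicate 2, where HF had 0 reads.

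The ratio of ribosome-bound to total mRNA within a diet asked which regulators were under- or over-represented on ribosomes. Srebf2 was the least represented member in both diets. In HB, 0 of 8 members were called, against 28.4% of all genes. In HF, 1 of 8 was called (Srebf2), against 28.6% of all genes. The median over all genes was -0.71 in HB and -0.56 in HF on the log2 scale, and that of the members -0.54 in HB and -0.73 in HF.

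Nr1h3 had the highest ratio in both diets. Its ribosome-bound CPM was 148% of its total mRNA CPM in HB and 125% in HF. Scap was near parity, at 101% in HB and 95.9% in HF. Srebf1 stood at 74.7% in HB and 65.2% in HF, and Insig1 at 63.2% in HB and 39.5% in HF. Single libraries moved these ratios widely. On the log2 scale Srebf1 in HB was -0.42 and became 0.08 without HB mRNA replicate 1, and Srebf1 in HF was -0.62 and became 0.06 without HF mRNA replicate 2; it was -0.04 or -1.59 when the first or the other HF ribosome-bound library was left out. Insig1 in HB was -0.66 and became 0.31 without HB mRNA replicate 1 and -1.23 without HB mRNA replicate 2. Insig2 stood at 47.0% in HB and 56.0% in HF. None of the ratios of Nr1h3, Scap, Srebf1, Insig1 and Insig2 was called in either diet with all libraries (adjusted p of 0.159 to 0.983, edgeR). Without HF ribosome-bound replicate 1 or 2, the HF log2 ratio of Insig1 was -1.68 or -1.06. That of Insig2 was -0.51 or -1.26. These fits left 1 HF ribosome-bound library. Mylip stood at 48.2% in HB and 97.1% in HF, where it rests on HF ribosome-bound replicate 2 alone.

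Srebf2 had 4.72 ribosome-bound CPM and 31.9 total mRNA CPM in HB, 14.8% (log2 ratio -2.75, SE 0.75, adjusted p = 0.0681). This ratio was called by DESeq2 (adjusted p = 0.000406), by edgeR with 8 unsummed libraries (adjusted p = 0.00768) and without either HF ribosome-bound library (adjusted p of 0.000208 and 0.000218). In HF its ribosome-bound level was 0 against 21.8 CPM in total mRNA, so the ribosome-bound level was at least 101-fold lower (adjusted p = 0.0103, edgeR). Leaving out any mRNA library took this adjusted p to 0.0538 to 0.0675. Mlxipl had 882 ribosome-bound CPM and 659 total mRNA CPM in HB, 134%, and 738 ribosome-bound CPM and 1711 total mRNA CPM in HF, 43.2%. Neither ratio was called, at log2 ratios of 0.42 in HB (SE 0.41, adjusted p = 0.505) and -1.21 in HF (SE 0.34, adjusted p = 0.0567). The HF ratio of Mlxipl was called by DESeq2 (-1.12, adjusted p = 0.00917), by edgeR with 8 unsummed libraries (-1.23, adjusted p = 0.0219) and without HF ribosome-bound replicate 2 (-1.66, adjusted p = 0.00422).

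The test of the difference between these ratios (the interaction of diet and kind of library) called 1 of 8 members, Srebf2, against 10.5% of all genes. For Srebf2 the adjusted p was 0.0336 (edgeR), and without any 1 mRNA library it was 0.189 to 0.197. The fitted size has no meaning of its own with HF at 0 reads. Mlxipl had the next largest change that rests on reads in every library, a log2 difference of 1.63 (SE 0.53, unadjusted p = 0.0270, adjusted p = 0.169), and was not called. It was called by DESeq2 (1.56, adjusted p = 0.0402) and without HF ribosome-bound replicate 2 (2.09, adjusted p = 0.00798), which leaves each diet with a lone ribosome-bound sample. With all libraries, the other 6 members had adjusted p-values of 0.820 to 1.00 (edgeR). For Mylip the log2 difference was -2.01 without HF ribosome-bound replicate 1. It was 9.66 without HF ribosome-bound replicate 2, where HF had 0 ribosome-bound reads.

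The m6A peak lists asked where each regulator carried enriched fragments. The authors called peaks per library, and every listed fold enrichment was at least 6; these folds and pileups are the authors' own values. No exon map was used, so a peak was assigned by at least 1 base of overlap with the annotated gene span (GRCm38.p6 coordinates). The 8 spans carried 19 peaks, 9 in the HB libraries and 10 in the HF libraries, over 6 members. Srebf1 (chr11:60199084-60224186) and Insig1 had none in any library. Of 12475 genes with a span that were tested in mRNA, 82.6% had a peak in at least 1 library and 35.9% in all 4; among the members 6 of 8 had a peak in at least 1 library and 0 of 8 in all 4.

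No member peak overlapped a member peak of another library, so no position recurred. Between whole libraries 17.0% to 23.2% of peaks overlapped a peak of the other library, replicates of a diet included. Scap, Insig2 and Mylip had peaks in 3 libraries each, and Srebf2, Nr1h3 and Mlxipl in 2. Fold enrichments ranged from 6.16 to 24.0 with a median of 9.05. The highest was in Scap in HB replicate 1 (chr9:110347983-110348248, fold 24.0), and Scap also held the lowest, 6.16, in HF replicate 2 (chr9:110347644-110347843).

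Mlxipl had 6 peaks, 4 in HB replicate 1 and 2 in HF replicate 1, and none in either replicate 2. The HB peaks had folds of 9.05 to 10.7, and that nearest the gene end (chr5:135135867-135136152, summit 3765 bases from the end) had the highest pileup of the 6, 216. An HF peak (chr5:135089834-135090098, fold 9.90) spanned the first annotated start, with its summit 109 bases past it, so that it overlapped the end of the first Mlxipl sequence shown while its summit lay beyond it. The remaining HF peak (fold 7.13) lay mid-gene, with its summit at 52.1% of the span, where an HB peak had its summit at 49.6%. Peaks in introns and in exons could not be told apart here.

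Insig2 had 1 peak in HB replicate 2 (fold 6.74, pileup 57.5) and 1 in each HF library (folds 6.81 and 7.14). The peak of HF replicate 2 (chr1:121304942-121305313) lay 721 bases from the gene end and had the highest pileup of all member peaks, 277. Mylip had 1 peak in HB replicate 2 (fold 6.55), 38.5% of the way along its span, and 1 in each HF library (folds 8.14 and 12.1), at 94.6% and 85.8%. Srebf2 had 1 peak in HB replicate 1 (fold 9.11) and 1 in HF replicate 2 (fold 9.09), with summits at 65.4% and 76.6% of the span. Nr1h3 had 1 peak in HB replicate 1 (fold 12.3, summit 1440 bases inside the 5′ end of its span) and 1 in HF replicate 2 (fold 6.50, 387 bases inside it). Both summits (chr2:91201389 and chr2:91202442) lay upstream of the starts of the Nr1h3 promoter windows, chr2:91195116 and chr2:91195035 on the minus strand. No test was made on peaks, and how pileups were scaled is not given in the sources used here.

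**Figure D3:**
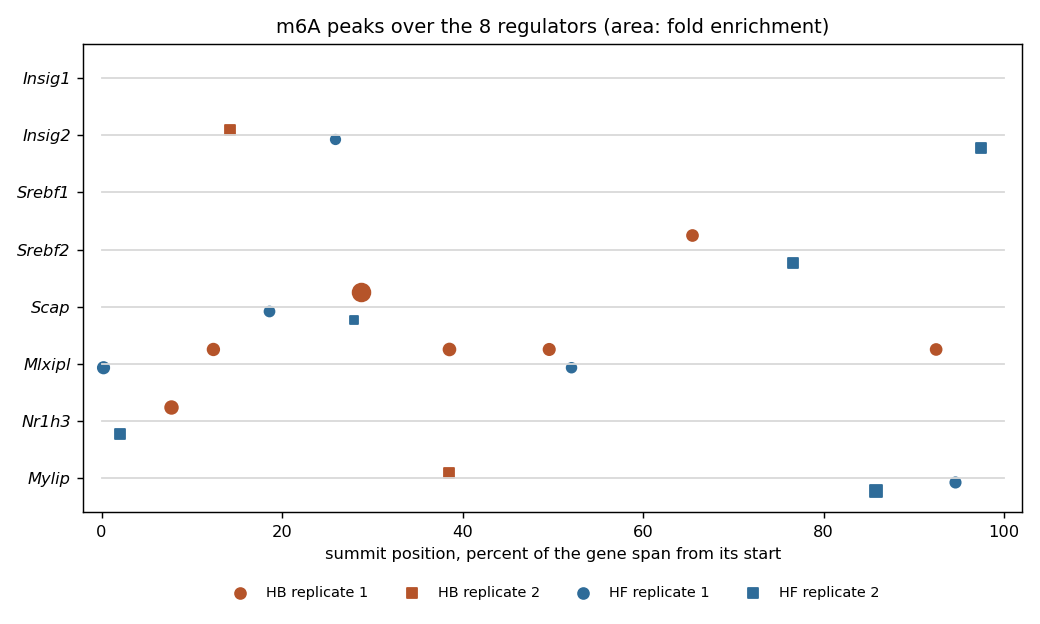
Summit of each m6A peak as a percent of the annotated gene span from its start (x axis), for the 8 regulators (rows), coloured by diet with HB offset above HF, circles for replicate 1 and squares for replicate 2; symbol area is the authors' fold enrichment. Insig1 and Srebf1 have no peak, the largest symbol is Scap in HB replicate 1 (24.0), and no position recurs between libraries.

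The regulators were set beside the genes they act with and on, in lists chosen with earlier results of these data known. For these lists, a gene is said to rise or fall where it was called in total mRNA (adjusted p under 0.05, edgeR). Of 25 measured genes of the machinery around SREBPs and ChREBP (proteases, ligases and other interacting proteins, partners of ChREBP and LXR, Sp1 and NF-Y subunits, and lipoprotein uptake), 1 rose and 1 fell in HB. Among all genes 11.3% were called higher and 10.1% lower. Of the 25 log2 changes 18 were positive, and their median was 0.26. Fbxw7, a ligase adaptor for nuclear SREBPs, fell, with 7.76 and 6.92 CPM in HB, against 18.9 and 15.6 CPM in HF (-1.23, adjusted p = 0.0205), a call that did not hold when HF replicate 1 was left out. Without HB replicate 2, 4 genes of this list were higher and 3 lower; with total counts 1 was higher and 4 were lower.

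In total mRNA, sterol synthesis targets of SREBP-2 moved much more than the regulators. Of 24, 22 were called higher and 0 lower, against 11.3% and 10.1% of all genes, with a median log2 change of 2.08. In ribosome-bound mRNA 3 of the 24 were called higher and 0 lower, against 11.5% of all genes called. There 21 changes were positive, with a median of 1.64. The largest total mRNA changes were those of Fdps (3.24), Cyp51 (3.03), Sqle (3.00) and Idi1 (2.90), enzymes from the isoprenoid steps to lanosterol demethylation. Fdps had 401 and 179 CPM in HB, against 34.3 and 27.1 CPM in HF, and Cyp51 had 92.9 and 45.4 CPM in HB, against 8.05 and 8.95 CPM in HF. For both genes the HB libraries lay far above the HF libraries. Ribosome-bound Fdps, Cyp51 and Idi1 also had positive log2 changes (3.43, 3.58 and 3.32), with only Fdps called. Ribosome-bound Sqle was at 0 CPM in both HB libraries, against 5.99 and 0 CPM in HF. With each mRNA library left out, 17 to 23 sterol targets were higher and 0 lower.

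Fatty acid synthesis targets, shared by SREBP-1c and ChREBP, gave 13 of 17 called higher and 0 lower in total mRNA, with a median of 2.28. The shares among all genes were 11.3% higher and 10.1% lower. In ribosome-bound mRNA 1 of the 17 was called higher and 1 lower, against 11.5% of all genes called, with 15 changes positive and a median of 2.64. In total mRNA Pnpla3 (4.02), Fads2 (3.58), Me1 (3.02) and Fasn (2.96) had the largest changes. Pnpla3 had 87.1 and 2.16 CPM in HB, against 2.84 and 2.67 CPM in HF, so its call came from HB replicate 1 alone (-0.34 without it). Without HB replicate 1 the list had 7 higher and a median of 1.10. HB replicate 1 was also the library with the highest Insig1 and Srebf1 mRNA.

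Of 13 carbohydrate-response genes, which ChREBP activates, 3 rose and 1 fell. Among all genes 11.3% were higher and 10.1% lower. The median log2 change of the list was 0.58, and 9 of the 13 changes were positive. Pklr, the liver pyruvate kinase, had 659 and 234 CPM in HB, against 78.2 and 128 CPM in HF (log2 change 2.12, adjusted p = 0.0118), and missed the threshold without HB replicate 1 (1.20, adjusted p = 0.0595). Gpd1 rose by 1.59 and Khk by 1.17. Txnip, a redox protein gene and classic ChREBP target, fell, with 58.8 and 68.5 CPM in HB, against 139 and 117 CPM in HF (-1.01, adjusted p = 0.0275); Txnip lost its call without HB replicate 1, HF replicate 1 or HF replicate 2, and Khk without either HF library. The list had 5 higher with DESeq2 and 6 without HB replicate 2.

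Of 12 LXR targets, a list that includes the members Srebf1, Mlxipl and Mylip, 2 rose and 1 fell. Scd1 rose by 1.90 and Pltp by 1.29, and Mlxipl itself fell. Scd1 is also on the list of fatty acid synthesis targets. The shares among all genes were 11.3% higher and 10.1% lower. The median of the LXR list was -0.06. The sterol exporters Abca1 (-0.39, adjusted p = 0.427), Abcg1 (0.27, adjusted p = 0.621), Abcg5 (-0.81, adjusted p = 0.0894) and Abcg8 (0.53, adjusted p = 0.226) were not called. With total counts 4 LXR targets were lower. Scd1 lost its call without HB replicate 1, and Pltp without either HF library, so that 1 target was higher in each of those fits.

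**Figure D4:**
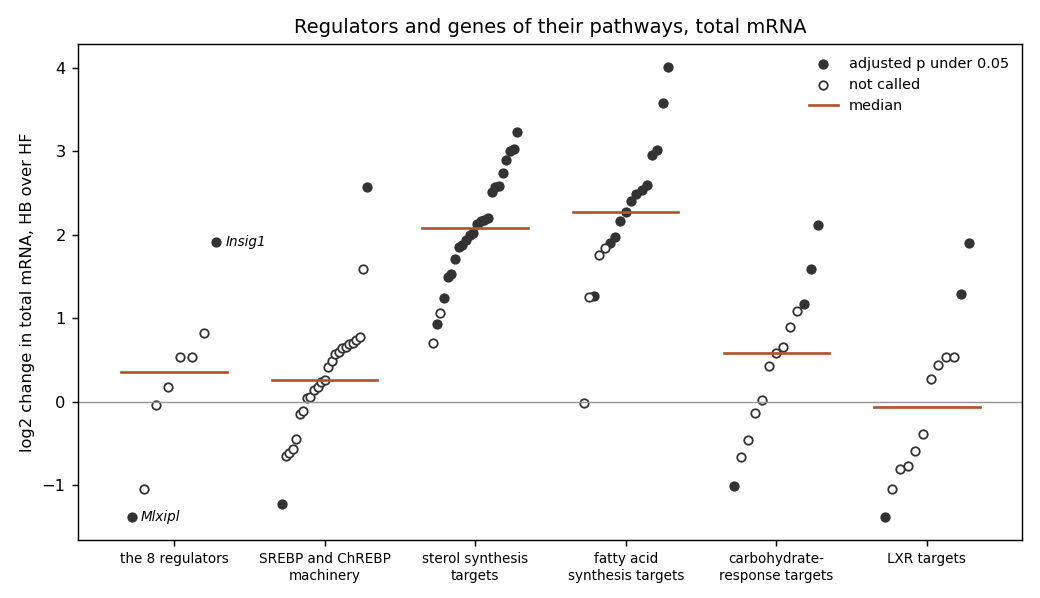
Log2 change in total mRNA, HB over HF (y axis), of the 8 regulators and of each gene of the 5 lists (points, sorted within a list); filled points passed an adjusted p of 0.05 and bars are medians. Sterol (median 2.08) and fatty acid synthesis targets (2.28) lie far above the regulators (0.36). The machinery and sterol lists share 2 genes, and Scd1 is in both the fatty acid synthesis and the LXR lists.

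Pattern likeness was described by Pearson's r of log2(CPM + 1) over the 8 count libraries. These libraries differ in diet, kind and depth, and all of these differences enter r. Insig1 was most like Mccc1 (r 0.98), Fam98a (0.97) and Pklr (0.97), and Mlxipl most like Ankhd1 (0.98), H2-Q4 (0.97) and Ccnl2 (0.97). Srebf1 was most like Arhgap5, Senp5 and Hspa5 (0.96 each), Scap most like Myl6 (0.97), and Insig2 most like Slc10a2 (0.94). Srebf2 was most like Ube2n (1.00) and Bccip (0.99), Nr1h3 most like Itprip (0.97), Fcamr (0.97) and Clec4f (0.97), and Mylip most like Siah1a (0.98), Fyb (0.98) and Csf3r (0.97), a neutrophil marker. Clec4f is a Kupffer cell marker whose values ran against most of its list. It had 118 and 119 CPM of total counts in HB mRNA, against 178 and 158 CPM in HF mRNA. With TMM, 7 of 8 Kupffer cell markers had a positive log2 change. Scaling by total counts shifted the median log2 change over all genes by -0.29. Among the members the highest r were Srebf2 with Insig2 (0.77), Srebf2 with Insig1 (0.71) and Insig1 with Insig2 (0.71), and the lowest was Nr1h3 with Mylip (-0.91).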

How the data were processed

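The deposited gene counts and RPKM values were made by the authors; per the series' design text, reads were mapped to RefSeq RNA, and the labels' protocols name Trimmomatic 0.36 and TopHat 2.0.13. Per the submitters' processing notes, the tools were HOMER 4.8, MACS2 2.1.0.20151222, edgeR, cutadapt 1.9.3, HTSeq 0.6.0 and HISAT2 2.0.4, listed without order, with build mm10. The m6A peak lists hold the authors' pileup signal, fold enrichment and −log10 values for each library. Whether counting used strand is not given in the sources used here.

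Counts were tested with edgeR 4.0.16 (R 4.3.3, limma 3.58.1; TMM, filterByExpr, quasi-likelihood, Benjamini-Hochberg threshold 0.05). The mRNA diet test used the 4 mRNA libraries, and the other tests used 7 libraries, with the HB ribosome-bound pair summed. CPM of mRNA diet results is scaled over 4 libraries, and that of ribosome-bound values and ratios over 8 or 7. DESeq2 1.42.0 was an alternative. Scripts were tested on simulated data. No per-sample column was left unmapped.

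The members and lists were chosen with earlier results of these data known. Named genes were all 8 members, the 4 called genes of largest change per list (the 2 of smallest p where none was called) and the 3 genes of most similar pattern with a mean of at least 5 CPM; the 4 sterol exporters were chosen after their values were seen. Some genes that the rule names are not reported here. Peaks were to be assigned to exons; with no exon map they were assigned to gene spans. Reads of Srebf1 and Rai1, Srebf2 and Mir33, Insig1 and Gm35223, and Nr1h3 and Acp2, which overlap in the annotation, may not be separable. Intervals and floors cover counting error only. Figures were drawn with matplotlib 3.10.9.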

Additional observations from a re-analysis of the deposited data

Results flagged for a closer look

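Srebf2 was singled out because its diet effect differed between ribosome-bound and total mRNA: the interaction had an adjusted p of 0.0336 (edgeR quasi-likelihood test, 7 libraries). The HB ribosome-bound libraries had 30 and 47 reads, against 0 and 0 in HF, and total mRNA had 694 and 399 reads in HB, against 274 and 238 in HF. Without any 1 mRNA library the adjusted p was 0.189 to 0.197. The HF ribosome-bound pair, in which 2798 genes had 0 reads in a library and over 20 in the other, enters this result, and its part was not tested.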

How the results depend on the processing

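In total mRNA, 2 members were called, and 2 with each mRNA library left out; 4 were called with no filter on low counts and 0 in the 7-library fit, whose spread is larger. Over all genes there were 784 to 3198 calls with an mRNA library left out, against 2740 with all 4.

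In ribosome-bound mRNA, the 1 call became 2 with DESeq2 or with 8 unsummed libraries, and 0 with the 8-library replicate block or with the ribosome-bound libraries alone; leaving out libraries gave 0 to 4. The second call was Insig1, and the call lost was Srebf2. For the ratio in HB, 0 calls became 1 (Srebf2) with DESeq2 or 8 unsummed libraries, and 0 to 1 with libraries left out. For the ratio in HF, 1 became 2 (Mlxipl joined Srebf2) with DESeq2 or 8 unsummed libraries, 0 with the replicate block, and 0 to 5 with libraries left out. For the interaction, 1 became 2 (Mlxipl) with DESeq2, 0 with the replicate block, and 0 to 3 with libraries left out. With the block, Srebf2 had adjusted p-values of 0.164 in ribosome-bound mRNA, 0.0870 for the HF ratio and 0.170 for the interaction. Leaving out any mRNA library gave 0 calls over all genes in these 4 comparisons, and leaving out an HF ribosome-bound library takes all spread from mRNA. The count of members with a peak in all libraries, 0, was 0 to 2 with an m6A library left out. Otherwise the cause was not tested.

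Directions turned as follows. Scap turned in mRNA with total counts (-0.12), in the HB ratio with 8 libraries (-0.038 unsummed, -0.034 with the replicate block) and in the HF ratio (0.031 with RLE, 0.093 with total counts, 0.016 at 5 CPM or more, 0.032 with DESeq2). Mylip turned in the HF ratio (0.046, 0.12, 0.047 and 0.045 under the same settings) and, with the replicate block, in ribosome-bound mRNA (2.17) and the interaction (1.75); Nr1h3 turned in ribosome-bound mRNA with the block (-0.086). With a library left out, changes spanned 0 in mRNA for Nr1h3 (-0.21 to 0.086) and Pnpla3 (-0.34 to 4.99); in ribosome-bound mRNA for Mlxipl (-0.087 to 0.71), Nr1h3 (-0.16 to 0.71) and Mylip (-3.05 to 8.62); in the HB ratio for Insig1 (-1.23 to 0.31), Scap (-0.12 to 0.17) and Srebf1 (-0.78 to 0.082); in the HF ratio for Mylip (-10.71 to 0.96), Nr1h3 (-0.18 to 0.70) and Srebf1 (-1.59 to 0.060); and in the interaction for Insig2 (-0.98 to 0.23), Mylip (-2.01 to 9.66), Nr1h3 (-0.13 to 0.75), Scap (-0.062 to 0.23) and Srebf1 (-0.48 to 1.17).

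No clear pairing by replicate number was seen (the deviations of same-numbered samples had r of -0.13 between HB and HF mRNA, 0.12 between HF mRNA and HF ribosome-bound, and values between these for the other group pairs). These low r cannot exclude a pairing. The HB ribosome-bound pair differed little beyond counting error, and in the HF pair 2798 genes had 0 reads in a library but over 20 in the other. The mRNA replicate block called 3 members and 2936 genes; the crossed pairing, chosen after seeing the data, called 3 members and 3407 genes. The list alternatives were also chosen after seeing the data. The planned choice of exons against gene body was not run. The 2 pools per group, and the single HB ribosome-bound sample, limit every comparison.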
